A study of Mus musculus with 6 samples.

Results

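The miR-15/16 family was followed through 4 of its 5p strands, miR-15a-5p, miR-15b-5p, miR-16-5p and miR-195a-5p, in small RNA sequencing of immune cells taken from mouse liver. The members are the entries of the count table that carry these names. They are 4 of the 1960 mature miRNAs listed in the count table, and 4 of 4 passed the filter on low counts that left 297 miRNAs for testing. The 6 libraries came from female mice of strain C57BL/6J, Wildtype by genotype and 10 weeks old, 2 libraries in each of 3 groups. The study asked what delta-8-tetrahydrocannabinol (D8THC), a cannabinoid, does in hepatitis set off by concanavalin A (ConA), a lectin that activates T cells. ConA+D8THC mice were given ConA at 12.5 mg/kg into the retro-orbital sinus, with D8THC at 20 mg/kg in 100 µL by the intraperitoneal route both 15 to 18 h ahead of ConA and 30 min after it. ConA+Vehicle mice were given the same ConA dose with DMSO in corn oil, the carrier of D8THC. Vehicle mice were given DMSO in corn oil alone and are labelled as free of disease. The labels call the libraries of a group biological replicates. The sources used here do not give the number of mice behind a library or the hour of tissue collection, so the p-values measure only the spread between these libraries.

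miRNAs of this family pair with messenger RNAs mainly through the seed, the bases near the 5′ end. Their known targets include cyclins D1 and E1, CDK6 and the survival protein BCL2, and the family is best known for holding back entry into the cell cycle. In humans, loss of the DLEU2 locus that encodes miR-15a and a copy of miR-16 is frequent in chronic lymphocytic leukaemia. The miR-195 and miR-497 hairpins form a separate cluster that carries the same seed.

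The mature sequences show what the members share and where they part, with the seed, bases 2 to 8, in capitals. Sequences and strand positions are from RefSeq (GRCm38.p6), and 4 of 4 members were matched.
miR-15a-5p: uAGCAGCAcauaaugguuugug
miR-15b-5p: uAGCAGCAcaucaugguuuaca
miR-16-5p: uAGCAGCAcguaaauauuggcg
miR-195a-5p: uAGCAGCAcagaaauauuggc
The related strands that follow are those the results refer to, the first pair with the same seed and miR-503-5p with a seed that ends differently.
miR-497a-5p: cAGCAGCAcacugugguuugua
miR-322-5p: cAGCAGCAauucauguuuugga
miR-503-5p: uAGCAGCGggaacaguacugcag

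The 4 members share their first 9 bases. Counting from 1 at the 5′ end, miR-16-5p and miR-195a-5p had the same base at 19 of 21 compared positions, and the miR-195a-5p differences from miR-16-5p were G10A and U11G. miR-15a-5p and miR-15b-5p had the same base at 18 of 22 positions. RefSeq holds 10 mature mouse miRNAs with the seed AGCAGCA. All 10 are in the count table, 7 had a count in some library, and 6 were tested, namely the 4 members with miR-497a-5p and miR-322-5p.

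The 4 strands come from 5 hairpins in 3 clusters (GRCm38, GENCODE M21). miR-15a-5p lies at chr14:61632075-61632096 on the minus strand, in an intron of the long noncoding RNA Dleu2. Its neighbour Mir16-1 starts 54 bases away and overlaps 1 annotated Dleu2 exon. miR-15b-5p lies at chr3:69009775-69009796 on the plus strand in an intron of Smc4, which encodes a condensin subunit, and Mir16-2 follows after 66 bases in the same gene. miR-195a-5p lies at chr11:70235062-70235082 on the plus strand, with Mir497 241 bases away and no host gene in the annotation.

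The same 22 bases of miR-16-5p are cut from both Mir16-1, at chr14:61631936-61631957, and Mir16-2, at chr3:69009918-69009939, so its count cannot be divided between the loci. The other arms differ, as the hairpins show with both mature arms in capitals.
Mir16-1: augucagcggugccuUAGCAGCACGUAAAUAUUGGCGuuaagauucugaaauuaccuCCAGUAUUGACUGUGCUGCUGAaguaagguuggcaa
Mir16-2: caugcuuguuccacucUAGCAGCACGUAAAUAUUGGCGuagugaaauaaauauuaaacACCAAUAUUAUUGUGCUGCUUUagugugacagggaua

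Library totals ran from 322764 to 1172389 counts. The ConA+Vehicle libraries were the shallowest, at 381274 and 322764 counts. Levels are given as CPM, counts scaled to library size, with TMM, a factor that sets most miRNAs level between libraries, and 3 counts corresponded to 2.63 to 9.93 CPM. Members had 111 counts or more in every library, where the counting error of the lowest value is 9.49%. Replicates correlated at r = 0.979 in ConA+D8THC, 0.966 in ConA+Vehicle and 0.982 in Vehicle over the tested miRNAs. The labelled cell type was checked against its markers: miR-142a, which marks blood cells of every kind, took 7.72% to 11.2% of counts in ConA+D8THC, 9.03% to 10.3% in ConA+Vehicle and 2.53% to 7.31% in Vehicle. Hepatocyte miRNAs (6 in the list) took 5.18% to 7.15%, 17.1% to 19.7% and 8.35% to 13.9% in the same groups, and the endothelial miR-126a strands took 20.7% to 26.7%, 12.8% to 13.2% and 32.7% to 34.2%. No marker of the 8 cell type lists was at 0 in any library. In such bulk libraries, fewer cells of a type and less RNA per cell cannot be told apart.

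miR-16-5p was the family's main strand and at rank 3 of the table by mean level and between rank 2 and rank 5 in single libraries. It was measured at 92999 and 89887 CPM in ConA+D8THC, at 84301 and 95123 CPM in ConA+Vehicle, and at 58375 and 65155 CPM in Vehicle. All 4 libraries from ConA-treated mice were above both Vehicle libraries, while the ConA+D8THC values lay inside the ConA+Vehicle range. That position depended on scaling. By library totals, miR-16-5p was at 98675 and 91472 CPM in ConA+D8THC, above the 88682 and 89050 CPM of ConA+Vehicle. With TMM, means were 91443 ± 2200 CPM in ConA+D8THC, 89712 ± 7652 CPM in ConA+Vehicle and 61765 ± 4795 CPM in Vehicle (SD, n = 2 each).

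miR-15a-5p, at rank 61 by mean level, was present at 1150 and 833.7 CPM in ConA+D8THC, 1404 and 1115 CPM in ConA+Vehicle, and 1406 and 928 CPM in Vehicle. Each pair of groups overlapped. miR-15b-5p, at rank 67, was present at 1041 and 643 CPM in ConA+D8THC, 1326 and 1039 CPM in ConA+Vehicle, and 947 and 622 CPM in Vehicle. Here both ConA+Vehicle libraries were above both Vehicle libraries, and ConA+D8THC overlapped each of the other groups.

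miR-195a-5p, at rank 80, was measured at 323 and 441 CPM in ConA+D8THC, 371 and 367 CPM in ConA+Vehicle, and 678 and 759 CPM in Vehicle. Every library from ConA-treated mice was below both Vehicle libraries, the reverse of miR-16-5p. Set against the Vehicle mean, miR-195a-5p stood at 45.0% and 61.4% in ConA+D8THC and at 51.7% and 51.1% in ConA+Vehicle. The same measure for miR-16-5p was 150.6% and 145.5% in ConA+D8THC and 136.5% and 154.0% in ConA+Vehicle.

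**Figure D1:**
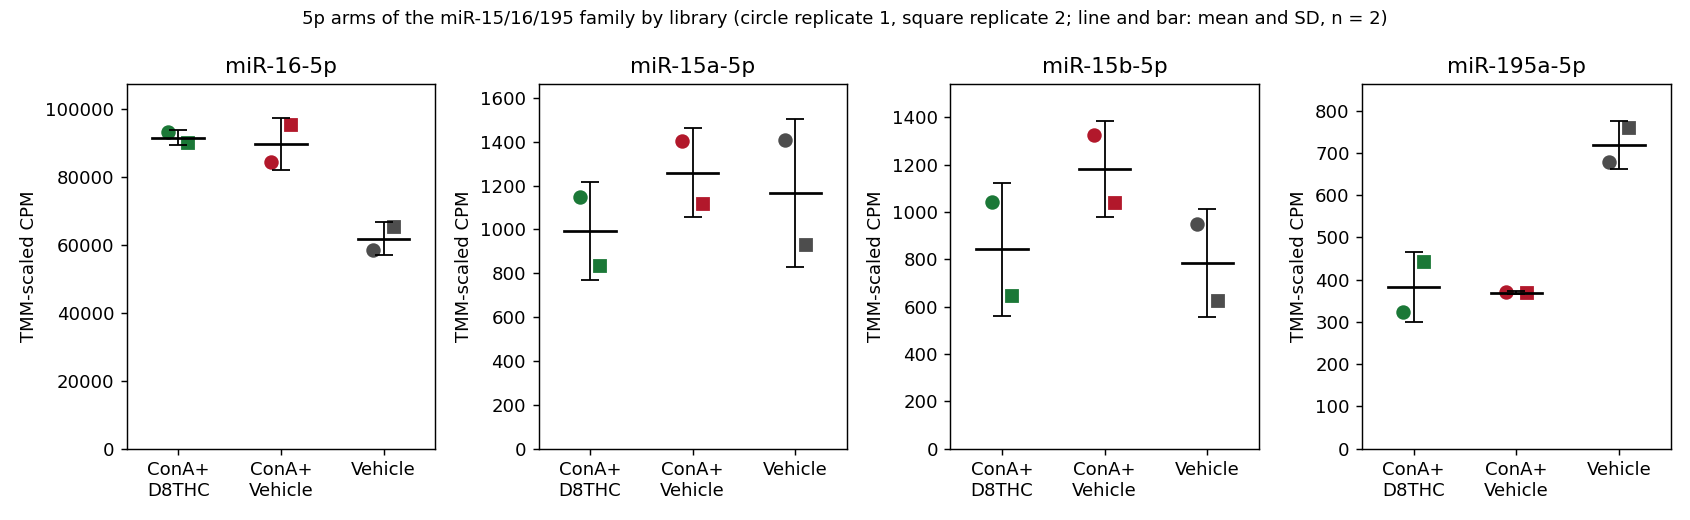
TMM-scaled CPM of each family member (vertical axis, from 0, with its own range per panel) in the ConA+D8THC, ConA+Vehicle and Vehicle libraries; each point is 1 library and lines with bars give the mean and SD of 2 libraries. miR-16-5p is higher and miR-195a-5p lower in all 4 libraries from ConA-treated mice than in both Vehicle libraries, and miR-15a-5p overlaps between all groups.

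Added together, the 4 members made up 10.1% and 9.34% of all miRNA counts in ConA+D8THC, 9.19% and 9.14% in ConA+Vehicle, and 5.90% and 6.56% in Vehicle. miR-16-5p supplied between 95.1% and 97.9% of that sum in every library, so the summed level was close to the level of miR-16-5p. The share of miR-195a-5p in the sum was 0.338% and 0.480% in ConA+D8THC, 0.425% and 0.376% in ConA+Vehicle, and 1.10% and 1.13% in Vehicle. Mature strands of 21 or 22 bases are compared here by counts, and any difference between strands in capture by the library kit remains in these shares.

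The first comparison asks what ConA does without D8THC. miR-195a-5p was the member that fell, being 1.94-fold lower in ConA+Vehicle than in Vehicle. Its log2 fold change was -0.96 ± 0.24 (SE; 95% interval -1.50 to -0.42; edgeR quasi-likelihood adjusted p = 0.0107). miR-16-5p had a log2 fold change of 0.54 ± 0.21 (interval 0.07 to 1.01), a difference that missed the threshold of 0.05 after adjustment (edgeR adjusted p = 0.0705). miR-15b-5p had 0.60 ± 0.30 (interval -0.07 to 1.26; edgeR adjusted p = 0.146) and miR-15a-5p 0.11 ± 0.27 (interval -0.48 to 0.71; edgeR adjusted p = 0.804).

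In count, 1 of 4 members was called in ConA+Vehicle against Vehicle, none higher and 1 lower, where 36.7% of the 297 tested miRNAs were called in either direction, 19.9% higher and 16.8% lower. At an unadjusted p under 0.05 in edgeR, 2 of 4 members passed, miR-16-5p and miR-195a-5p, beside 44.4% of tested miRNAs. Groups did not overlap for 3 of the 4 members, against 67.3% of all tested miRNAs. The median log2 fold change of the 4 was 0.33, beside 0.10 over all tested miRNAs. Both counts are near those of the whole table. The miR-195a-5p call rested on both ConA+Vehicle libraries: without replicate 1 of that group the adjusted p was 0.0727 and without replicate 2 it was 0.0732, at log2 fold changes of -0.95 and -0.94. miR-16-5p passed the threshold in 2 of 15 other settings, among them scaling by library totals (log2 0.57, edgeR adjusted p = 0.0272). With no filter its edgeR adjusted p was 0.549. miR-15b-5p passed in 4 of 15, among them the fit of the 2 groups alone (log2 0.61, edgeR adjusted p = 0.0391). Its log2 fold change was 0.91 without Vehicle replicate 1 and 0.60 without ConA+D8THC replicate 1.

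The second comparison asks what D8THC changes in mice given ConA. None of the 4 members was called in ConA+D8THC against ConA+Vehicle by edgeR, and 0 of 4 passed an unadjusted p under 0.05, where 3.70% of tested miRNAs were called and 18.9% passed the unadjusted level. With TMM the groups overlapped for each of the 4 members, while 46.8% of tested miRNAs did not overlap. With library totals miR-16-5p did not overlap, at a log2 fold change of 0.10 (edgeR adjusted p = 0.892). The intervals give the size of change that these libraries leave possible. For miR-16-5p the log2 fold change was 0.03 ± 0.21 (interval -0.44 to 0.49) and for miR-195a-5p 0.05 ± 0.25 (interval -0.50 to 0.59). The intervals of miR-15a-5p (log2 -0.35, from -0.94 to 0.25) and miR-15b-5p (log2 -0.49, from -1.15 to 0.17) reached further below 0, and their edgeR adjusted p-values were 0.616 and 0.468. DESeq2 and limma-voom also called 0 of 4 members here.

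The third comparison sets ConA+D8THC against Vehicle, and it uses the same Vehicle libraries as the first. miR-195a-5p fell here too, 1.88-fold lower in ConA+D8THC, with a log2 fold change of -0.91 ± 0.24 (interval -1.44 to -0.38; edgeR adjusted p = 0.0177). miR-16-5p had 0.57 ± 0.21 (interval 0.10 to 1.03; edgeR adjusted p = 0.0615), miR-15b-5p 0.11 ± 0.30 (interval -0.55 to 0.76) and miR-15a-5p -0.23 ± 0.27 (interval -0.83 to 0.36). Thus 1 of 4 members was called, and it was lower, where 32.7% of tested miRNAs were called, 18.5% higher and 14.1% lower. The unadjusted level of 0.05 was passed by 2 of 4 members and by 45.8% of tested miRNAs. Groups did not overlap for 2 of the 4 members, against 74.7% of tested miRNAs. The miR-195a-5p call was lost without Vehicle replicate 2 (log2 -0.79, edgeR adjusted p = 0.0689) and without ConA+D8THC replicate 1 (log2 -0.69, edgeR adjusted p = 0.121). miR-16-5p passed the threshold in 4 of 15 other settings. Among them were library totals (log2 0.67, edgeR adjusted p = 0.0194) and limma-voom (log2 0.57, adjusted p = 0.0486). Another of the 4 took the hepatocyte miR-122-5p and both endothelial miR-126a strands out of the libraries (log2 0.68, edgeR adjusted p = 0.0283). With no filter the edgeR adjusted p of miR-16-5p was 0.330.

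**Figure D2:**
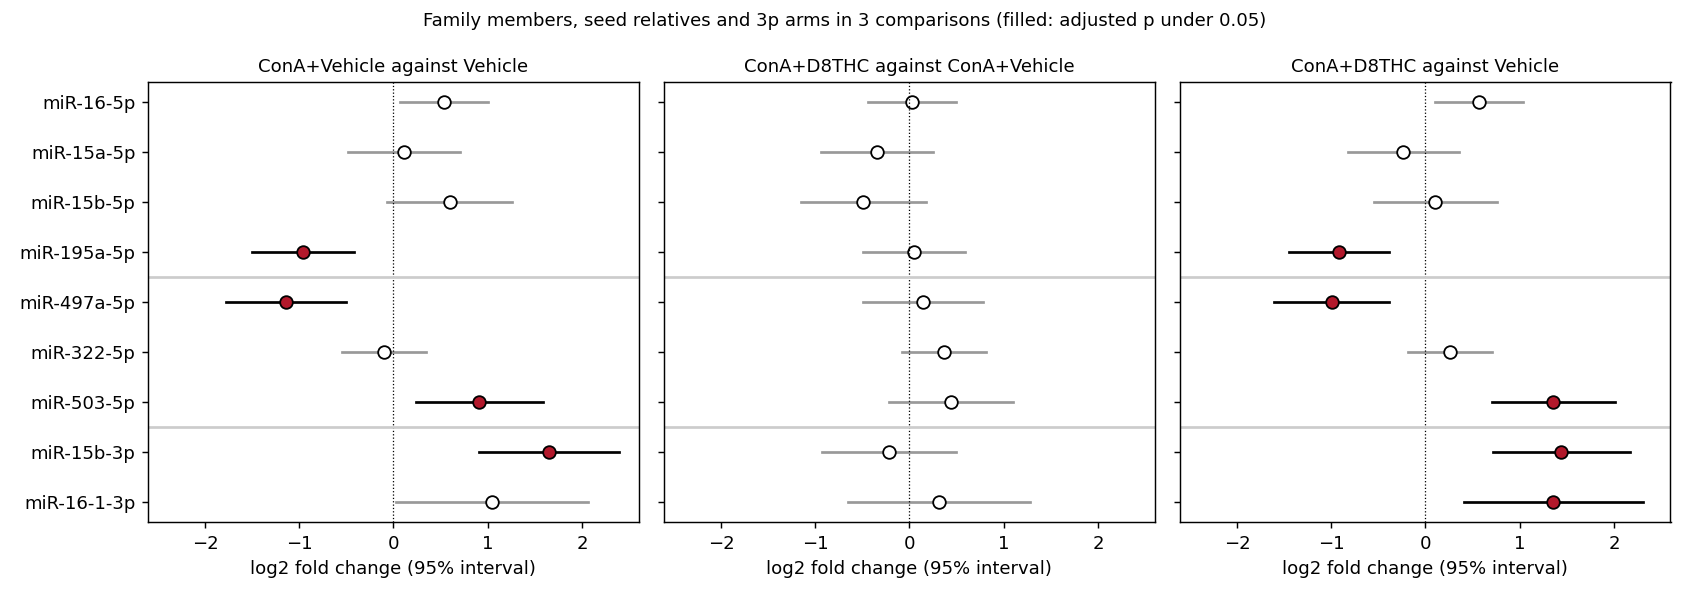
Log2 fold change (horizontal axis; points) with its 95% interval (lines) for the 4 members, 3 related strands and 2 opposite arms in the 3 comparisons; filled points passed an adjusted p of 0.05 in edgeR. miR-195a-5p and miR-497a-5p are left of 0 and called in both comparisons with Vehicle, miR-15b-3p is right of 0 and called in both, and no point is filled in ConA+D8THC against ConA+Vehicle.

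miR-497a-5p, the cluster partner of miR-195a-5p with the same seed, was read at a lower level. It stood at 135 and 191 CPM in ConA+D8THC, 142 and 152 CPM in ConA+Vehicle, and 305 and 343 CPM in Vehicle. As for miR-195a-5p, all 4 libraries from ConA-treated mice were below both Vehicle libraries. It was 2.20-fold lower in ConA+Vehicle than in Vehicle (log2 -1.14 ± 0.29, edgeR adjusted p = 0.00994) and 1.99-fold lower in ConA+D8THC than in Vehicle (log2 -0.996 ± 0.28, edgeR adjusted p = 0.0199). The first of these calls was lost without ConA+Vehicle replicate 1 (adjusted p = 0.0725), and the second without Vehicle replicate 2 (0.0733) or ConA+D8THC replicate 1 (0.158). Each library held 2.39 and 2.31 counts of miR-195a-5p per count of miR-497a-5p in ConA+D8THC, 2.61 and 2.41 in ConA+Vehicle, and 2.22 and 2.21 in Vehicle. That ratio moved little beside miR-16-5p per miR-195a-5p, which was 288 and 204 in ConA+D8THC, 227 and 259 in ConA+Vehicle, and 86.2 and 85.8 in Vehicle.

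Marker lists of other cells are given beside this pair. In ConA+Vehicle against Vehicle 16.8% of tested miRNAs were lower and 19.9% higher. Members fell there in the endothelial list (2 of 2) and the stellate cell and fibroblast list (2 of 5). They also fell in the myeloid (2 of 4, with 2 higher) and hepatocyte lists (1 of 6, with 4 higher). In ConA+D8THC against Vehicle 14.1% of tested miRNAs were lower and 18.5% higher. Members fell there in the hepatocyte (4 of 6), myeloid (1 of 4, with 2 higher) and stellate cell lists (1 of 5). None of 5 bile duct miRNAs was called in either comparison by edgeR. Of 5 stellate cell and fibroblast miRNAs, 2 fell in ConA+Vehicle against Vehicle (miR-199a-3p and miR-199a-5p) and 1 in ConA+D8THC against Vehicle (miR-214-3p), while miR-143-3p of that list had log2 fold changes of 0.42 and -0.53 and was called in neither. Summed, the 5 took 0.743% to 1.26% of counts in ConA+D8THC, 0.740% to 1.29% in ConA+Vehicle and 1.28% to 1.32% in Vehicle. Both endothelial miR-126a strands fell in ConA+Vehicle against Vehicle and neither was called in ConA+D8THC against Vehicle. Their part in the lower miR-195a-5p and miR-497a-5p levels was not tested.

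miR-322-5p and miR-503-5p, encoded 200 bases apart on chromosome X, are the family's more distant relatives. miR-322-5p, with the full family seed, stood at 1491 and 1558 CPM in ConA+D8THC, 1164 and 1205 CPM in ConA+Vehicle, and 1318 and 1228 CPM in Vehicle, and was called in no comparison. miR-503-5p, whose seed ends in G, stood at 204 and 255 CPM in ConA+D8THC, 162 and 175 CPM in ConA+Vehicle, and 80.0 and 98.2 CPM in Vehicle. Its 3 groups did not overlap in any pairing. It rose 2.56-fold in ConA+D8THC against Vehicle (log2 1.36 ± 0.30, edgeR adjusted p = 0.00676), a call kept in 15 of 15 other settings. In ConA+Vehicle against Vehicle it was 1.88-fold higher (log2 0.91 ± 0.30, edgeR adjusted p = 0.0363), but that call held in only 7 of 15 settings and was lost when Vehicle replicate 1 (adjusted p = 0.126) or either ConA+Vehicle library (0.101 without replicate 1, 0.163 without replicate 2) was taken out.

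The opposite arm of the Mir15b hairpin changed more than the miR-15b-5p strand did. Its sequence, seed in capitals, is cut from the 3′ side of the same hairpin as miR-15b-5p.
miR-15b-3p: cGAAUCAUuauuugcugcucua
It was counted at 249 and 171 CPM in ConA+D8THC, 237 and 252 CPM in ConA+Vehicle, and 93.8 and 62.2 CPM in Vehicle. All libraries from ConA-treated mice were above both Vehicle libraries. miR-15b-3p rose 3.15-fold in ConA+Vehicle against Vehicle (log2 1.65 ± 0.34, edgeR adjusted p = 0.0033) and 2.71-fold in ConA+D8THC against Vehicle (log2 1.44 ± 0.33, edgeR adjusted p = 0.00896). Both calls were kept in 15 of 15 other settings. It was not called in ConA+D8THC against ConA+Vehicle (log2 -0.21 ± 0.32, edgeR adjusted p = 0.846).

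The arms of Mir15b therefore stood in different proportion in the groups. Per count of miR-15b-3p there were 4.19 and 3.77 counts of miR-15b-5p in ConA+D8THC, 5.60 and 4.13 in ConA+Vehicle, and 10.1 and 9.99 in Vehicle. Means of this ratio were 3.98 ± 0.297, 4.87 ± 1.04 and 10.0 ± 0.0724 (SD, n = 2 each). The ratio is taken within a library, so scaling between libraries does not enter it. It is given as a description, and no test was run on it.

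**Figure D3:**
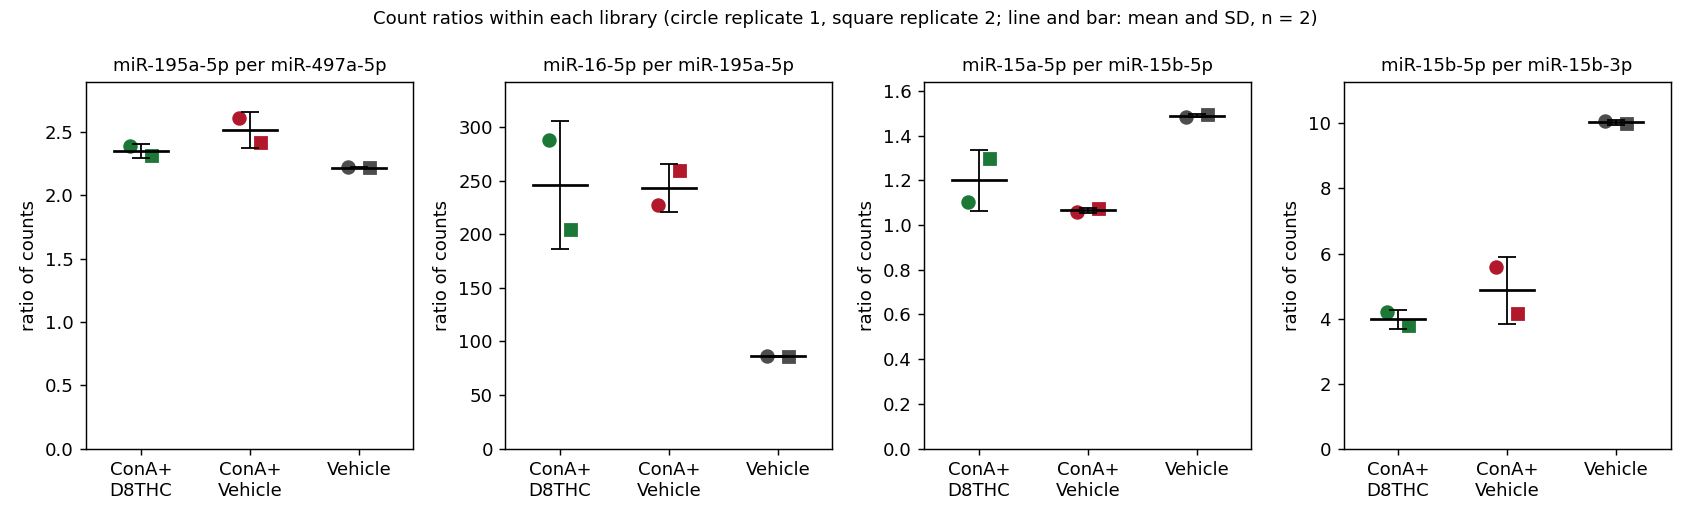
Ratios of counts within each library (vertical axes, from 0) for the ConA+D8THC, ConA+Vehicle and Vehicle groups; points are libraries, lines with bars the mean and SD of 2. miR-195a-5p per miR-497a-5p stays between 2.21 and 2.61, while miR-16-5p per miR-195a-5p is higher, and miR-15b-5p per miR-15b-3p lower, in the libraries from ConA-treated mice than in Vehicle.

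miR-16-5p from the 2 loci cannot be told apart, but its opposite arms can, since their seeds differ.
miR-16-1-3p: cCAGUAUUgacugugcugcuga
miR-16-2-3p: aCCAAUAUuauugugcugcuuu
Of 300 counts of both 3p arms over the 6 libraries, 270 belonged to miR-16-1-3p of the Dleu2 locus, which is 90% (95% Clopper-Pearson interval 86.0% to 93.2%, covering counting error only). The share was 94.1% and 93.9% in ConA+D8THC, 80.0% and 88.5% in ConA+Vehicle, and 85.7% and 86.7% in Vehicle. These arms were rare, with 1108 counts of miR-16-5p for each count of a 3p arm, and their proportion need not be that of the 5p strand.

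miR-16-1-3p stood at 115 and 65.4 CPM in ConA+D8THC, 69.8 and 76.1 CPM in ConA+Vehicle, and 49.7 and 22.8 CPM in Vehicle. All libraries from ConA-treated mice were above both Vehicle libraries. It rose 2.56-fold in ConA+D8THC against Vehicle (log2 1.36 ± 0.43, edgeR adjusted p = 0.0349), though the call was lost without Vehicle replicate 2 (log2 0.90, edgeR adjusted p = 0.131), without ConA+D8THC replicate 1 (log2 0.91, edgeR adjusted p = 0.214) and in DESeq2 (adjusted p = 0.0550). In ConA+Vehicle against Vehicle it had a log2 fold change of 1.04 ± 0.46 (edgeR adjusted p = 0.104), and it passed in 5 of 15 other settings, among them those without Vehicle replicate 1 (log2 1.65, edgeR adjusted p = 0.00564) and without ConA+D8THC replicate 2 (log2 1.10, edgeR adjusted p = 0.0436).

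The remaining arms did not pass the filter on low counts and are given as counts only. miR-15a-3p had 7 and 7 counts in ConA+D8THC, 3 and 0 in ConA+Vehicle, and 4 and 2 in Vehicle. miR-195a-3p had 6 and 8 counts in ConA+D8THC, 2 and 2 in ConA+Vehicle, and 10 and 30 in Vehicle. miR-16-2-3p had 3 to 7 counts in every library. Of the other miRNAs that RefSeq lists with the family seed, miR-195b had 3 counts in all 6 libraries together, and miR-6342, miR-6353 and miR-6419 had 0.

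miR-15a-5p and miR-15b-5p differed between the libraries of a group in the same way, both being higher in the library numbered 1 than in the library numbered 2 in each of the 3 groups. The erythroid list of 4 miRNAs (miR-451a, the miR-144 strands and miR-486a-5p), whose sum was 0.0557% and 0.0439% of counts in ConA+D8THC, 0.180% and 0.0855% in ConA+Vehicle, and 0.103% and 0.0434% in Vehicle, was likewise higher in each library numbered 1. So was the list of 4 lymphocyte miRNAs, at 1.05% and 0.642%, 1.12% and 0.874%, and 0.814% and 0.566% of counts in the same groups. Most of that sum was miR-150-5p, at 0.682% and 0.411%, 0.898% and 0.636%, and 0.643% and 0.408% of counts. The pattern was not particular to these lists: the pan-haematopoietic miR-142a strands (11.2% and 7.72%, 10.3% and 9.03%, and 7.31% and 2.53%) and the 13 proliferation-promoting strands of miR-17~92 and its paralogs (2.73% and 1.94%, 2.89% and 2.20%, and 1.04% and 0.737%) were also higher in each library numbered 1, and the hepatocyte and endothelial lists were lower in each. By edgeR 0 of 4 erythroid miRNAs were called in any comparison. In ConA+D8THC against ConA+Vehicle, though, all 4 were lower without overlap. miR-451a, miR-144-5p, miR-144-3p and miR-486a-5p had log2 fold changes of -1.96, -1.42, -1.37 and -0.94 there. Their unadjusted edgeR p-values ran from 0.00836 to 0.0465. miR-451a was called there in 8 of 15 other settings, and the other erythroid strands in 3 to 6. In ConA+Vehicle against Vehicle miR-144-3p (log2 1.54) was called in 10 of 15, and the others in 1 to 6. Of the lymphocyte miRNAs 1 of 4 was higher in each comparison with Vehicle. In ConA+D8THC against ConA+Vehicle miR-150-5p had a log2 fold change of -0.55, miR-342-3p 0.36 and miR-181a-5p 0.04, none called. The part of the erythroid and lymphocyte lists in the miR-15a-5p and miR-15b-5p levels was not tested. The 15a-to-15b ratio was 1.10 and 1.30 in ConA+D8THC, 1.06 and 1.07 in ConA+Vehicle, and 1.49 and 1.49 in Vehicle, so it differed less between replicates than either level did.

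Likeness of pattern was measured as Pearson's r of log2 CPM over the 6 libraries, among 291 miRNAs with a mean of at least 10 CPM. These points share libraries and depth, and the 3 groups set much of each pattern, so the values only describe. The closest to miR-195a-5p was its cluster partner miR-497a-5p (r = 0.995), followed by miR-151-5p (0.98) and let-7c-5p (0.97). The closest to miR-15b-5p were the lymphocyte miR-150-5p (0.99) and the erythroid miR-144-3p (0.97), then miR-467e-5p (0.89). miR-15a-5p was most like miR-150-5p (0.92), miR-486a-5p (0.92) and miR-106b-5p (0.91), with miR-15b-5p next (0.86).

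miR-16-5p was most like miR-223-5p (r = 0.996), a strand of the hairpin best known from neutrophils and other myeloid cells, and then like miR-466b-3p (0.98) and miR-191-5p (0.97). Among the other members the values were -0.24 with miR-15a-5p, 0.29 with miR-15b-5p and -0.92 with miR-195a-5p. Among the related strands they were 0.93 with miR-503-5p (rank 12 of 291), 0.25 with miR-322-5p and -0.90 with miR-497a-5p. miR-223-5p averaged 154 ± 32.2 CPM in ConA+D8THC, 133 ± 46.5 CPM in ConA+Vehicle and 33.5 ± 8.38 CPM in Vehicle (SD, n = 2 each). The more abundant strand of that hairpin, miR-223-3p, averaged 17331 ± 4190, 28525 ± 3459 and 3512 ± 111 CPM. In ConA+D8THC against ConA+Vehicle miR-223-3p had a log2 fold change of -0.72 (edgeR adjusted p = 0.106), beside 0.23 for miR-223-5p and 0.03 for miR-16-5p. The myeloid list, of which miR-223-5p is 1 of 4, took 1.48% to 2.18% of counts in ConA+D8THC, 2.76% to 2.92% in ConA+Vehicle and 0.348% to 0.365% in Vehicle. Most of that sum was miR-223-3p, which averaged 18077, 28214 and 3397 CPM by library totals in the same groups. Of the 4 myeloid miRNAs, 2 rose and 2 fell in ConA+Vehicle against Vehicle, where 19.9% of tested miRNAs rose and 16.8% fell. In ConA+D8THC against Vehicle 2 of the 4 rose and 1 fell, where 18.5% of tested miRNAs rose and 14.1% fell. The 2 that rose were the miR-223 strands each time, and miR-511-3p fell in both comparisons (log2 -3.10 and -2.33). The part of myeloid and other blood cells in the miR-16-5p level was not tested.

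Other miRNAs that act on the cell cycle give the surroundings of these values. The list of miRNAs known to hold proliferation back, the let-7, miR-98, miR-34, miR-449a, miR-26 and miR-24 strands, had 16 entries, of which 13 were tested. In ConA+Vehicle against Vehicle 6 of 13 fell and 0 rose, beside 16.8% lower and 19.9% higher among all tested miRNAs. The median log2 fold change was -0.29, beside 0.10 over all tested miRNAs. Those that fell were let-7b-5p, let-7c-5p, let-7d-5p, let-7e-5p, miR-24-3p and miR-26a-5p, with log2 fold changes of -0.78, -0.81, -0.60, -1.22, -0.86 and -0.62. The list's 3 most abundant strands, let-7f-5p, let-7a-5p and let-7i-5p, were not called, at -0.13, -0.29 and 0.15. Set against Vehicle, ConA+D8THC had 5 of 13 lower (median -0.50, beside -0.06), where 14.1% of tested miRNAs were lower. There let-7f-5p, let-7a-5p and let-7i-5p had log2 fold changes of -0.14, -0.32 and 0.48 and were not called. In ConA+D8THC against ConA+Vehicle 0 of 13 were called, where 3.70% of tested miRNAs were called. These counts depended on single libraries and on the setting. In ConA+Vehicle against Vehicle 1 fell when Vehicle replicate 2 or either ConA+Vehicle library was left out, and 4 fell with upper-quartile factors, with no filter or with the 2 groups fitted alone. For ConA+D8THC against Vehicle 0 fell without Vehicle replicate 2 or ConA+D8THC replicate 1, and 1 fell without ConA+D8THC replicate 2 or ConA+Vehicle replicate 2. The number tested was 16 with no filter and 13 or 15 with 1 library left out. With library totals 1 was higher beside 4 lower in ConA+D8THC against Vehicle. Calls in the higher direction also came without ConA+Vehicle replicate 2 in both comparisons with Vehicle, and without Vehicle replicate 1 in the first. In the second of them 1 fell with no filter and 1 with the 2 groups fitted alone, 3 fell with miR-122-5p and both miR-126a strands taken out, and without Vehicle replicate 1 there were 2 higher beside 5 lower.

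The opposite list held 13 guide strands of miR-17~92 and its paralogs that promote proliferation. In ConA+Vehicle against Vehicle 12 of 13 were higher (median log2 1.78, beside 0.10), where 19.9% of tested miRNAs were higher. ConA+D8THC also had 12 of 13 higher than Vehicle (median 1.56, beside -0.06), where 18.5% of tested miRNAs were higher. miR-106b-5p was called in neither. Leaving out any library or changing the setting left 11 or 12 of 13 called. Its most abundant strands were miR-93-5p, miR-25-3p and miR-20a-5p. miR-93-5p averaged 8562 ± 1735 CPM in ConA+D8THC, 8457 ± 194 CPM in ConA+Vehicle and 3512 ± 777 CPM in Vehicle (SD, n = 2 each). In ConA+D8THC against ConA+Vehicle 0 of 13 were called (median -0.31, beside -0.04), where 3.70% of tested miRNAs were called. Near-identical strands of this list, and of let-7, can share reads.

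**Figure D4:**
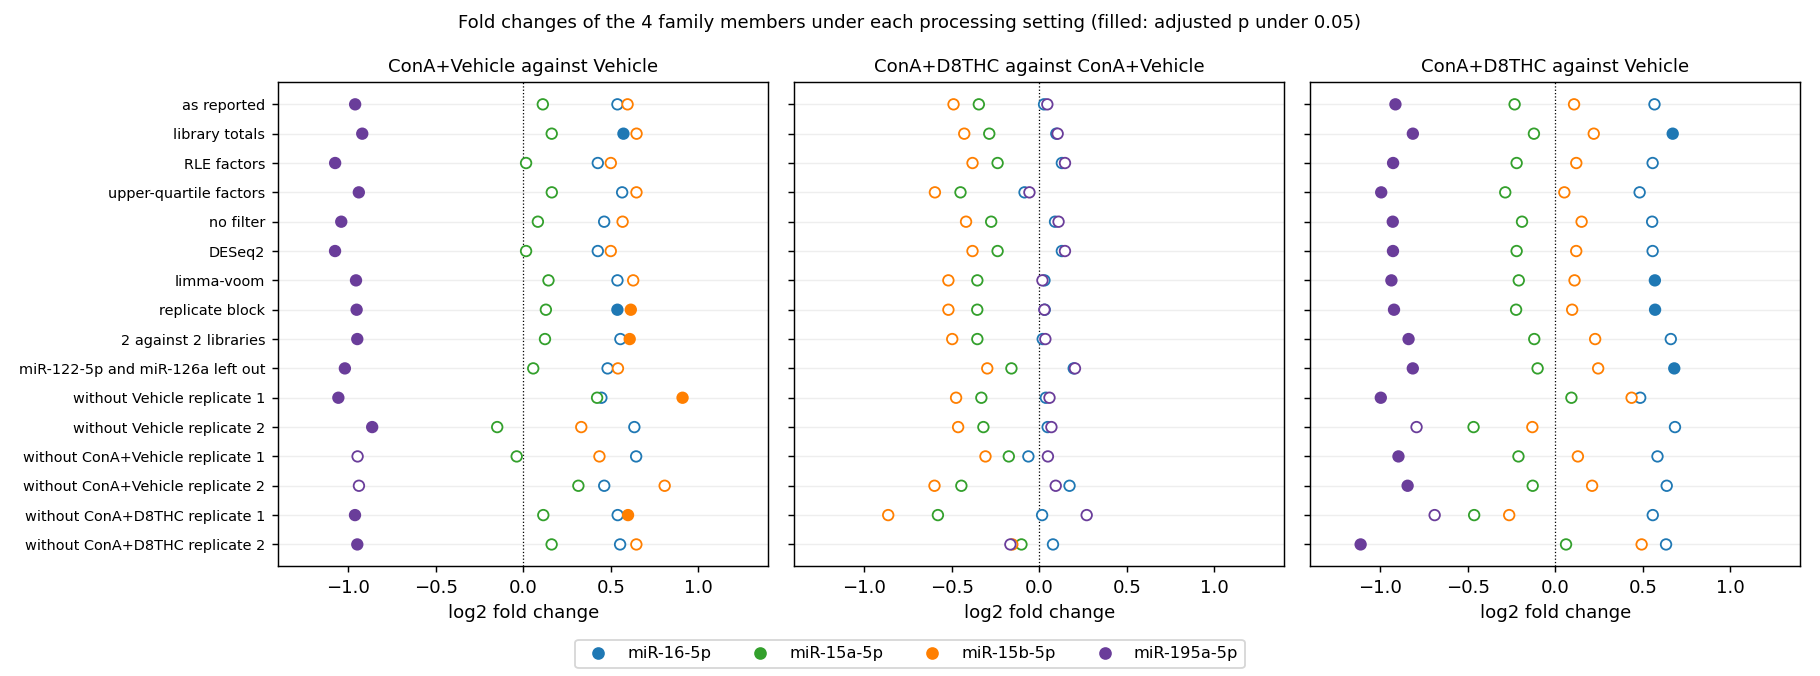
Log2 fold change of the 4 members (horizontal axis) as reported and under 15 other settings (rows) in the 3 comparisons; filled points passed an adjusted p of 0.05. miR-195a-5p stays left of 0 in both comparisons with Vehicle and is filled in 13 of 15 other settings of each, miR-16-5p stays right of 0 in both, and no point is filled in ConA+D8THC against ConA+Vehicle.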

How the data were processed

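Per the labels' protocols, liver-infiltrating immune cells were isolated with a dissociation kit, and libraries were made from their RNA with the QIAseq miRNA kit. The table deposited by the authors gives raw counts for each mature miRNA, obtained with QIAGEN's GeneGlobe portal, per the series' design text. The genome build was mm10 per the submitters' processing notes. Aligner, miRNA annotation, handling of multiple matches and use of molecular identifiers are not stated there.

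Counts were tested in R 4.3.3 with edgeR 4.0.16: filterByExpr by group, TMM scaling, and a robust quasi-likelihood fit (glmQLFit, glmQLFTest) of the 3 groups with all 6 libraries, leaving 3 residual degrees of freedom. Benjamini-Hochberg adjustment ran over the 297 tested miRNAs, with calls at an adjusted p under 0.05. Errors of fold changes are approximate standard errors from the test's F. limma 3.58.1 and DESeq2 1.42.0 served as alternatives, matplotlib 3.10.9 for plots. The procedure was tested on simulated data, in which only the ConA+Vehicle group was changed and spread followed level. That simulation held no shift shared by same-numbered libraries, so it does not cover such shifts. Named miRNAs were the members, their opposite arms and cluster partners, strands with the same or a related seed, the 3 most alike in pattern, and the 3 most abundant of each list. The members and lists were chosen with earlier results of these data known.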

Additional observations from a re-analysis of the deposited data

How the results depend on the processing

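Over 15 alternatives for the 9 strands followed in 3 comparisons, 359 of 405 fold changes kept their direction and their side of the threshold, 18 lost a call, 15 gained one and 13 changed sign. The causes were not tested. The 4 members held 1 call in ConA+Vehicle against Vehicle. They held 2 with library totals, 2 when only 2 against 2 libraries were fitted, and 0 to 2 when 1 library was left out. In ConA+D8THC against Vehicle the 1 call became 2 with library totals, with limma-voom and with miR-122-5p and both miR-126a strands left out, and ranged from 0 to 1 when 1 library was left out. Over all miRNAs, the 11 calls in ConA+D8THC against ConA+Vehicle became 17 with upper-quartile factors, 19 with no filter, 17 in DESeq2 and 18 with 2 against 2 libraries, and ranged from 8 to 40 without 1 library. Without 1 library, the 109 calls in ConA+Vehicle against Vehicle ranged from 67 to 129, and the 97 in ConA+D8THC against Vehicle from 63 to 112. The summed level of the members in ConA+D8THC was 97383 CPM with library totals, against 93659 CPM as reported.

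With the replicate number as a block the members' calls were 3 in ConA+Vehicle against Vehicle and 2 in ConA+D8THC against Vehicle, and 44 miRNAs were called in ConA+D8THC against ConA+Vehicle, 132 in ConA+Vehicle against Vehicle and 133 in ConA+D8THC against Vehicle. Of the cell-cycle restraining list 7 were then lower and 2 higher in ConA+D8THC against Vehicle. The gains were miR-16-5p (log2 0.54, edgeR adjusted p = 0.0170) and miR-15b-5p (log2 0.61, edgeR adjusted p = 0.00856) in the first, and miR-16-5p (log2 0.57, edgeR adjusted p = 0.0129) in the second. Deviations of same-numbered libraries from their group means correlated at 0.0785, 0.213 and 0.181 across miRNAs, and with 2 numbers a group the pairing is not established.

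Sign changes concerned uncalled values. In ConA+D8THC against ConA+Vehicle, upper-quartile factors put miR-16-5p at log2 -0.084 and miR-195a-5p at -0.056. Leaving out 1 library at a time gave a range of -0.062 to 0.17 for miR-16-5p, -0.16 to 0.27 for miR-195a-5p, -0.092 to 0.39 for miR-497a-5p, -0.50 to 0.056 for miR-15b-3p and -0.14 to 0.68 for miR-16-1-3p. The same step against Vehicle gave -0.47 to 0.092 for miR-15a-5p and -0.26 to 0.49 for miR-15b-5p in ConA+D8THC, and -0.15 to 0.42 for miR-15a-5p in ConA+Vehicle. Scaling moved the median of all tested miRNAs by over 0.1 in 6 cases, between -0.15 and 0.14 in ConA+D8THC against ConA+Vehicle.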
